A study of Mus musculus with 288 samples.

Results

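The 10 genes described here code for cytoplasmic and smooth muscle actins, for proteins that bind or move actin filaments, and for serum response factor (SRF), the transcription factor that controls many of them. They were taken by name from the 35904 genes listed in each expression table, and were selected on the known lower Actb level of the lung after intermittent hypoxia. The lung values are therefore a description of that choice and carry no test. Wild type C57BL/6J mice, male and 8 weeks old, breathed normal air (normoxia) or air whose oxygen cycled between 21% and 8% (intermittent hypoxia, IH) for 7 days. IH was given in the light (inactive) phase, and all mice breathed normal air in the dark phase. Both groups were then kept for 2 days in normoxic darkness before harvest. RNA from lung, liver, kidney, muscle, heart and cerebellum was sequenced at 8 times of day 3 hours apart, with 3 mice per time and treatment. This gives 24 libraries per tissue and treatment and 288 in all. Values are TPM, a relative transcript abundance corrected for transcript length.

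Unpolymerised (G-) actin binds the myocardin-related transcription factors and keeps them away from SRF. When actin is built into filaments, for example through ROCK and formins, these cofactors are released, enter the nucleus and act with SRF at CArG boxes in the promoters of actin and contractile genes. SRF can instead pair with ternary complex factors such as ELK1 at immediate early genes, and myocardin is the cofactor best known from smooth muscle and heart. In these organs Acta2, Tagln, Cnn1 and Myl9 are mainly expressed by the smooth muscle of vessels and airways and by pericytes and myofibroblasts, whereas Actb and Actg1 are made by nearly every cell.

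CArG boxes were looked for in RefSeq promoter windows of the GRCm38.p6 build (250 bases before to 50 after the start). An entry was given for 8 of the 10 genes and not for Actb and Tagln. The CArG box is 6 bases of A or T between CC and GG, a form that reads alike on both strands, and a CArG-like sequence has 1 C or G among those 6 bases. A CArG box was present in 5 of the 8 windows of these genes, against 1.63% of all 32851 windows. A box or CArG-like sequence was present in 6, against 9.98%. The 5 upstream stretches with a box are shown, 5′ to 3′ on the strand of the gene, because these letters are what SRF is known to bind. Capitals mark CArG boxes and, nearer to the start of Myl9, a CArG-like sequence.
Srf (chr17:46556185-46556274, minus strand): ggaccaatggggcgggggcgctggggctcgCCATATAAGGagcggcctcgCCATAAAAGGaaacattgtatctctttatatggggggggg
Actg1 (chr11:120348546-120348615, minus strand): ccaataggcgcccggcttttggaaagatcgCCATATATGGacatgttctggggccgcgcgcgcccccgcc
Cnn2 (chr10:79988514-79988583, plus strand): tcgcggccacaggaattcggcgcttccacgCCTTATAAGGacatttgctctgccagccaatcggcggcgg
Vcl (chr14:20929148-20929210, plus strand): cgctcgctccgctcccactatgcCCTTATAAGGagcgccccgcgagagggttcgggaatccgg
Myl9 (chr2:156775273-156775404, plus strand): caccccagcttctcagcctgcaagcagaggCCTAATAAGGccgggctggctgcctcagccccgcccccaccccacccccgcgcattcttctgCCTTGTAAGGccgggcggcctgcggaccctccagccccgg

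Srf itself held a pair of boxes close to its own start, and Cnn2 and Vcl carried the same 10 letters at different distances. Acta2 held no exact box in this window but a pair of CArG-like sequences, CCCTATATGG and CCTTGTTTGG, and neither form was found in the Cnn1 and Flna windows. Among the genes of related lists, an exact box was found in 2 of 2 windows of other actins, in 3 of 12 of further MRTF-SRF targets and in 0 of 8 of smooth muscle contractile genes. A match is a description of the letters in this window, and the absence of one says nothing of boxes elsewhere in a gene.

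**Figure D1:**
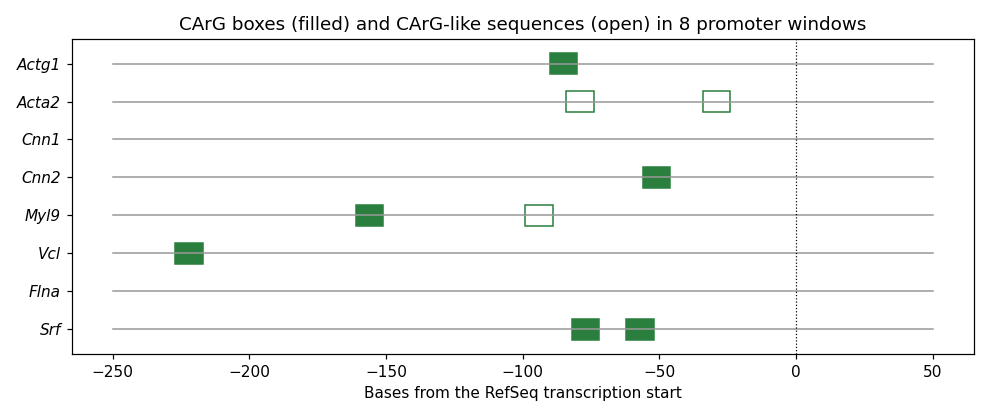
Position of CArG boxes (filled) and CArG-like sequences (open) in the promoter windows of 8 genes, in bases from the RefSeq start (dotted line). The 2 boxes of Srf lie at -82 and -62, and the windows of Cnn1 and Flna hold neither form.

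Every one of the 10 genes was above 0 TPM in all normoxia libraries, and 9 of them had their highest mean TPM in the lung, Srf being the exception. Actb, the β-actin gene at chr5:142903115-142906754 (GRCm38), averaged 1820.2 ± 423 TPM in the lung, 1031 ± 373 TPM in the cerebellum and 447 ± 76.9 TPM in muscle (mean ± SD, n = 24 each). It averaged 390.1 ± 77.1 TPM in the liver, 362 ± 260.1 TPM in the heart and 197 ± 72.0 TPM in the kidney. Actg1 (chr11:120345690-120348542), which codes for the cytoplasmic γ-actin, averaged 1087 ± 120.4 TPM in the lung, 486 ± 95.9 TPM in the cerebellum and 476 ± 90.3 TPM in the kidney. It averaged 314 ± 49.2 TPM in muscle and 254 ± 94.7 TPM in the heart, and the liver was lowest with a median of 84.3 TPM. The coding sequences of these genes are nearly identical and pseudogene copies exist, so the share of reads given to each is uncertain.

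Acta2 (chr19:34241090-34255590), the smooth muscle α-actin gene, averaged 97.3 TPM in the lung, 70.5 TPM in the heart and 59.6 TPM in muscle. It was lower in kidney, cerebellum and liver, at 22.2, 15.8 and 2.32 TPM. Tagln (chr9:45929619-45936058), coding for transgelin, an actin binding protein of smooth muscle, averaged 129 ± 15.9 TPM in the lung and 9.14 ± 2.56 TPM in the liver. Cnn1 (chr9:22099216-22109630) codes for calponin 1, which binds actin and slows myosin in smooth muscle, and averaged 35.6 ± 9.68 TPM and 0.438 ± 0.323 TPM in these organs. Myl9 (chr2:156775420-156781658), coding for a regulatory light chain of smooth muscle and non-muscle myosin, averaged 122 ± 14.9 TPM and 3.96 ± 0.949 TPM. Cnn2 (chr10:79988584-79996062), the calponin of many non-muscle cells, averaged 202 ± 39.9 TPM in the lung, 23.8 ± 8.05 TPM in the heart, which was next, and 3.19 ± 0.963 TPM in the liver. In mean TPM the lung thus stood highest for these genes and the liver lowest.

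Vcl (chr14:20929398-21033676), coding for vinculin, which ties actin to adhesion sites, averaged 61.1 ± 16.7 TPM in the lung and 2.73 ± 1.40 TPM in the cerebellum, the lowest tissue. Flna (chrX:74223461-74249820), coding for the cross-linker filamin A, averaged 180.2 ± 16.8 TPM in the lung and 6.58 ± 1.01 TPM in the liver, the lowest tissue. Srf (chr17:46548329-46556175) averaged 51.3 ± 6.94 TPM in muscle, 31.5 ± 3.95 TPM in the lung and 28.1 ± 6.12 TPM in the heart, and 13.3 ± 2.39 TPM in the kidney, 9.77 ± 3.22 TPM in the cerebellum and 7.01 ± 1.43 TPM in the liver. Between neighbours in the order of mean TPM, the difference on scaled log2 values passed (limma, adjusted p of 0.05 or less over all genes) in 44 of 50 pairs, beside 85.4% of all gene and tissue pairs tested. In 8 of those 44 the scaled difference ran against the TPM order, so that the order of those tissues depends on the scaling. They were Acta2, Tagln and Srf in lung and heart, Actb in muscle and liver, Actg1 and Flna in cerebellum and kidney, Myl9 in muscle and heart, and Srf in cerebellum and liver. The pairs that did not pass were, first, Actg1 in muscle and heart (difference 0.03, 95% interval -0.14 to 0.20). The others were Myl9 in lung and muscle, Vcl in kidney and liver, and Tagln, Cnn1 and Cnn2 in cerebellum and liver.

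**Figure D2:**
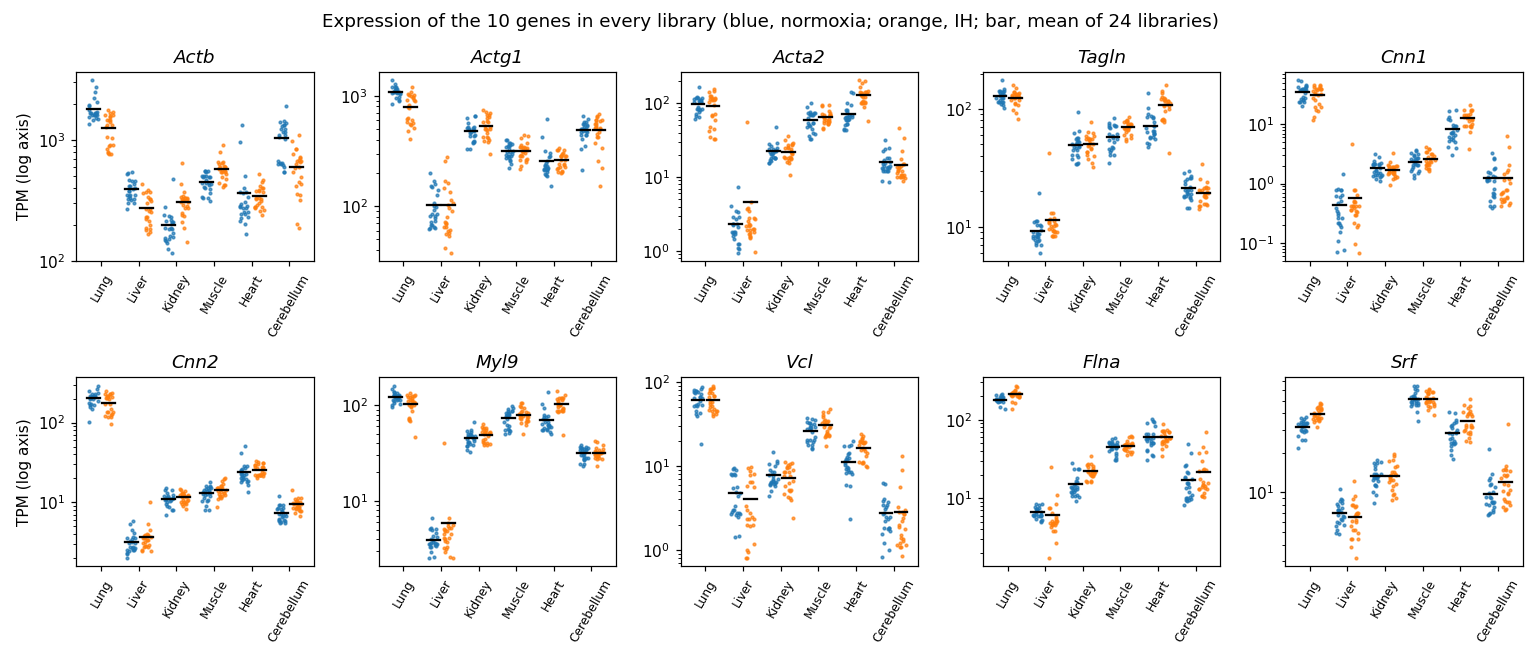
TPM (log axis) of the 10 genes in each of the 288 libraries, by tissue, with normoxia in blue, IH in orange and the mean of 24 libraries as a bar. Acta2 in the liver shows a single IH library at 55.1 TPM, far above the others, and Actb in the cerebellum lies lower after IH.

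Libraries differed in ways that touch these genes. In the heart, all 24 normoxia libraries had more genes above 0 TPM (22988 to 28331) than any IH library (20316 to 22793), so this measure and the treatment cannot be told apart there. In the lung the IH libraries had more (23622 to 28284) than normoxia (21746 to 25400), with an overlap. The liver IH library of replicate 2 at 13:30 held the heart marker Myh6 at 1507 TPM, against at most 10.8 TPM in the other liver IH libraries. The cerebellum IH library of replicate 3 at 1:30 held the cerebellar markers Pcp2 and Mbp at 124 and 113 TPM, against medians of 1994 and 2138 TPM. Its 5 heart markers summed to 5592 TPM (at most 3313 TPM in the others, with a median of 401 TPM over all cerebellum libraries) and its 5 muscle markers to 1487 TPM. In the cerebellum normoxia library of replicate 3 at 19:30 the muscle markers summed to 5774 TPM, against at most 397 TPM in the cerebellum libraries other than these. In 4 heart libraries, 3 of them normoxia, the 5 lung markers summed to more than 500 TPM; the others reached at most 373 TPM. The summed markers of each labelled tissue had their highest median in that tissue. In whole organs fewer cells of a type and less RNA per cell cannot be told apart.

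In the lung, Actb ranged from 1349 to 3104 TPM (median 1667) in normoxia and from 766 to 1764 TPM (median 1328) after IH, and it was lower after IH at 8 of 8 time points, with 13 of 24 IH libraries below the lowest normoxia library. On log2 values scaled between libraries, the difference was -0.88 (95% interval -1.11 to -0.64), or -45.5%. Differences between IH and normoxia are given on this log2 scale in all tissues. Actg1 ranged from 840.5 to 1376 TPM (median 1081) in normoxia and from 402 to 1208 TPM (median 806) after IH, a difference of -0.82 (95% interval -1.03 to -0.62). The ratio of Actb to Actg1 within a library, which no scaling of libraries moves, was 1.70 ± 0.53 in normoxia and 1.60 ± 0.15 after IH. Both cytoplasmic actins thus lay lower in the lung, by a like amount in this fit, with groups that overlap.

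Of the contractile genes in the lung, Acta2 averaged 97.3 ± 23.7 TPM in normoxia (range 60.2 to 165) and 91.3 ± 39.0 TPM after IH (range 32.9 to 156), a difference of -0.51 (95% interval -0.83 to -0.19). Myl9, Cnn2, Cnn1 and Tagln were at -0.58, -0.53, -0.52 and -0.35, and Vcl, Flna and Srf at -0.28, -0.092 and 0.036. In all 9 of the 10 genes were lower on the scaled values and 7 on TPM as deposited, where Vcl, Flna and Srf were higher. Over all lung genes 42.1% were higher on the scaled values, 70.4% passed and 41.5% were called lower, and nothing is read from the count of these genes. The scaling moved the median of all lung genes from 0.21 on TPM as deposited to -0.076. On TPM as deposited Actb was at -0.57, Actg1 at -0.52, Tagln at -0.048, Vcl at 0.023, Flna at 0.21 and Srf at 0.34. Among libraries of replicate numbers 1, 2 and 3 taken alone, Actb was at -0.93, -1.18 and -0.55, and Acta2 at -1.06, -0.79 and 0.28. Actb was lower under each number, while Acta2 was higher under number 3. When the fit also held the count of genes above 0 TPM per library, 5 of the 10 genes were lower, Actb at -0.42 and Actg1 at -0.16, and Acta2 was at 0.44.

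In related lists, 13 of 13 genes of actin binding and turnover were lower (median -0.56, beside -0.076 over all genes, of which 42.1% were higher). The widest differences were those of Cfl1 (cofilin, which severs filaments), from 503 to 374 TPM, log2 difference -0.78 ± 0.10, and Ezr (ezrin, a membrane linker) from 170.1 to 135 TPM, log2 difference -0.73 ± 0.12. Of the further MRTF-SRF targets 10 of 14 were lower, Ccn1 (a matricellular protein) by the most, from 61.3 to 45.3 TPM, log2 difference -0.78 ± 0.12. Of the smooth muscle contractile genes 6 of 9 were lower (median -0.093) and of the immediate early targets 6 of 8 (median -0.11). Of the other actins 1 of 3 was lower and 2 were higher (median 0.032). In the lung some lists of markers of other cells and tissues lay lower and others higher. All 5 endothelial markers were lower (median -0.70; summed 818 to 1944 TPM in normoxia and 729 to 1579 TPM after IH). So were all 5 epithelial lung markers (median -0.79, summed 135986 to 264207 TPM in normoxia and 34578 to 205116 TPM after IH). All 5 red cell markers were lower as well (median -0.73, summed 37231 to 165167 TPM in normoxia and 25749 to 174312 TPM after IH). Of the smooth muscle and pericyte markers, which stand for cells known to make Acta2 and Tagln, 5 of 7 were lower. Their median was only -0.093, near that of all genes (summed 86.0 to 163 TPM in normoxia and 101 to 203 TPM after IH). Some of these markers, Myh11 and Lmod1 among them, are also in the list of smooth muscle contractile genes. Counts of these lists are therefore not separate observations in any tissue. Of the fibroblast and leukocyte markers 4 of 5 each were lower (medians -0.20 and -0.15). Higher after IH were 4 of 4 muscle markers tested (median 0.70), 5 of 5 heart markers (median 0.24; Tnni3, cardiac troponin I, from 42.1 to 77.8 TPM, log2 difference 0.60 ± 0.12) and 4 of 5 liver markers (median 0.26). The part of any of these in the actin values was not tested.

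**Figure D3:**
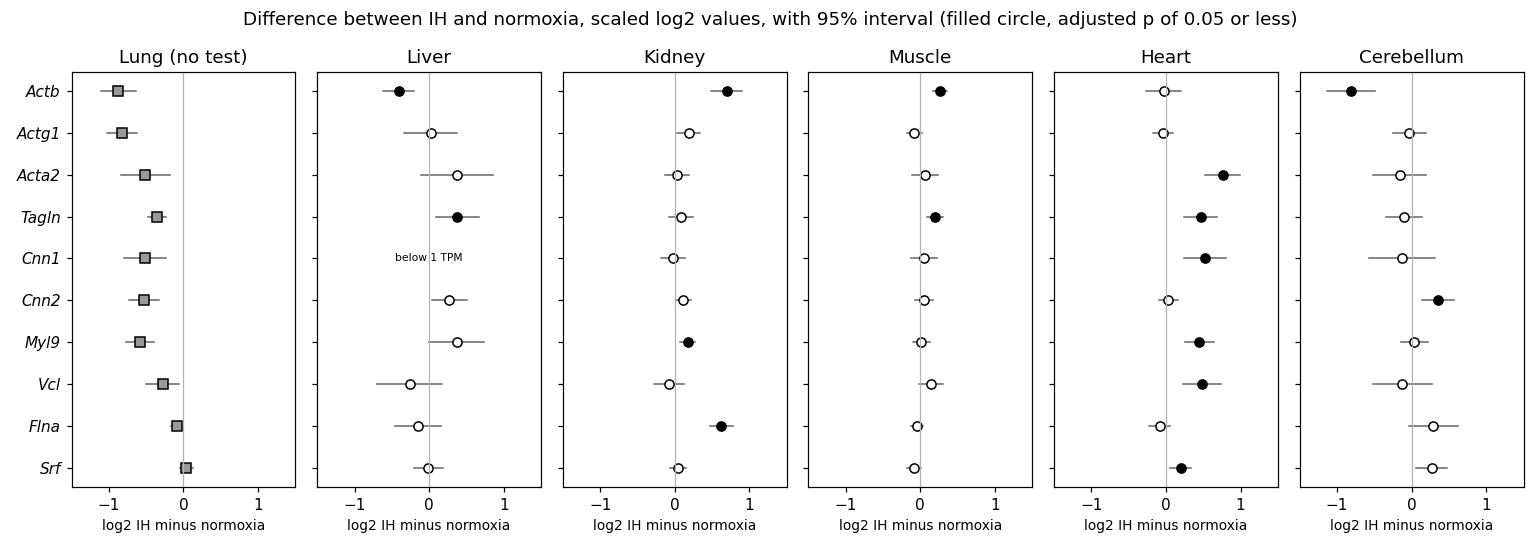
Difference between IH and normoxia (scaled log2 values) with its 95% interval for the 10 genes in 6 tissues; filled circles have an adjusted p of 0.05 or less, open circles do not, and squares mark the untested lung. Actb lies left of 0 in lung, liver and cerebellum and right of 0 in kidney and muscle, and in the heart Acta2 lies farthest right at 0.76.

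Outside the lung, Actb passed in 4 of 5 tissues, with lower levels in liver and cerebellum and higher levels in kidney and muscle. In the cerebellum it ranged from 541 to 1927 TPM (median 1100.3) in normoxia and from 188 to 1093 TPM (median 617) after IH, lower at 8 of 8 time points, and the difference was -0.82 (95% interval -1.14 to -0.50, adjusted p = 3.69e-04). It was the 1 gene of the 10 that fell there, where 5.24% of all genes did, and Cnn2 was the 1 that rose (9.76% of all genes). Actg1 in the same libraries was at -0.032 (95% interval -0.25 to 0.19, adjusted p = 0.875), and the mean ratio of Actb to Actg1 was 2.21 ± 0.85 in normoxia and 1.21 ± 0.28 after IH (mean ± SD, n = 24 each, no test).

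In the cerebellum Actb was lower under replicate numbers 1 and 2, at -1.55 and -0.92, and number 3 alone gave 0.018. Without number 1 or number 2 it did not pass (-0.45, adjusted p = 0.264, and -0.76, adjusted p = 0.0795). Without the cerebellum library that stands apart it was -0.80, adjusted p = 3.36e-04. Without both cerebellum libraries that hold muscle transcripts, left out after the values were seen, it was -0.81, adjusted p = 3.06e-04, and Cnn2 was 0.30, adjusted p = 0.0107. In the liver Actb ranged from 268 to 548 TPM (median 379) in normoxia and from 167 to 436 TPM (median 265) after IH, lower at 8 of 8 time points, and the difference was -0.41 (95% interval -0.62 to -0.20, adjusted p = 0.00322). By number it was at -0.86, -0.43 and 0.029 for numbers 1, 2 and 3. Without number 1 or number 2 the liver difference was -0.19 (adjusted p = 0.447) or -0.40 (adjusted p = 0.0872). Over all genes 0.962% and 2.11% passed in these liver fits, beside 24.2% with all liver libraries.

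In the kidney Actb ranged from 117 to 479 TPM (median 185) in normoxia and reached 643 TPM (median 309) after IH, higher at 8 of 8 time points, and rose by 0.69 (95% interval 0.49 to 0.90, adjusted p = 2.79e-06), with 0.54, 0.85 and 0.69 under numbers 1, 2 and 3. In muscle it ranged from 315 to 558 TPM (median 438) in normoxia and from 406 to 900.3 TPM (median 569) after IH, also higher at 8 of 8 time points, and rose by 0.26 (95% interval 0.16 to 0.36, adjusted p = 1.41e-04), with 0.15, 0.30 and 0.34 under the 3 numbers. In the heart Actb was at -0.03 (95% interval -0.27 to 0.21, adjusted p = 0.857), or 0.032 (adjusted p = 0.835) without the 4 libraries with lung transcripts, of which the normoxia library of replicate 3 at 7:30 held the highest value, 1338 TPM. Actg1 passed in none of the 5 tissues, its nearest being the kidney at 0.18 (95% interval 0.032 to 0.34, adjusted p = 0.0775), which passed without replicate 2 at 0.32 (adjusted p = 0.0144).

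**Figure D4:**
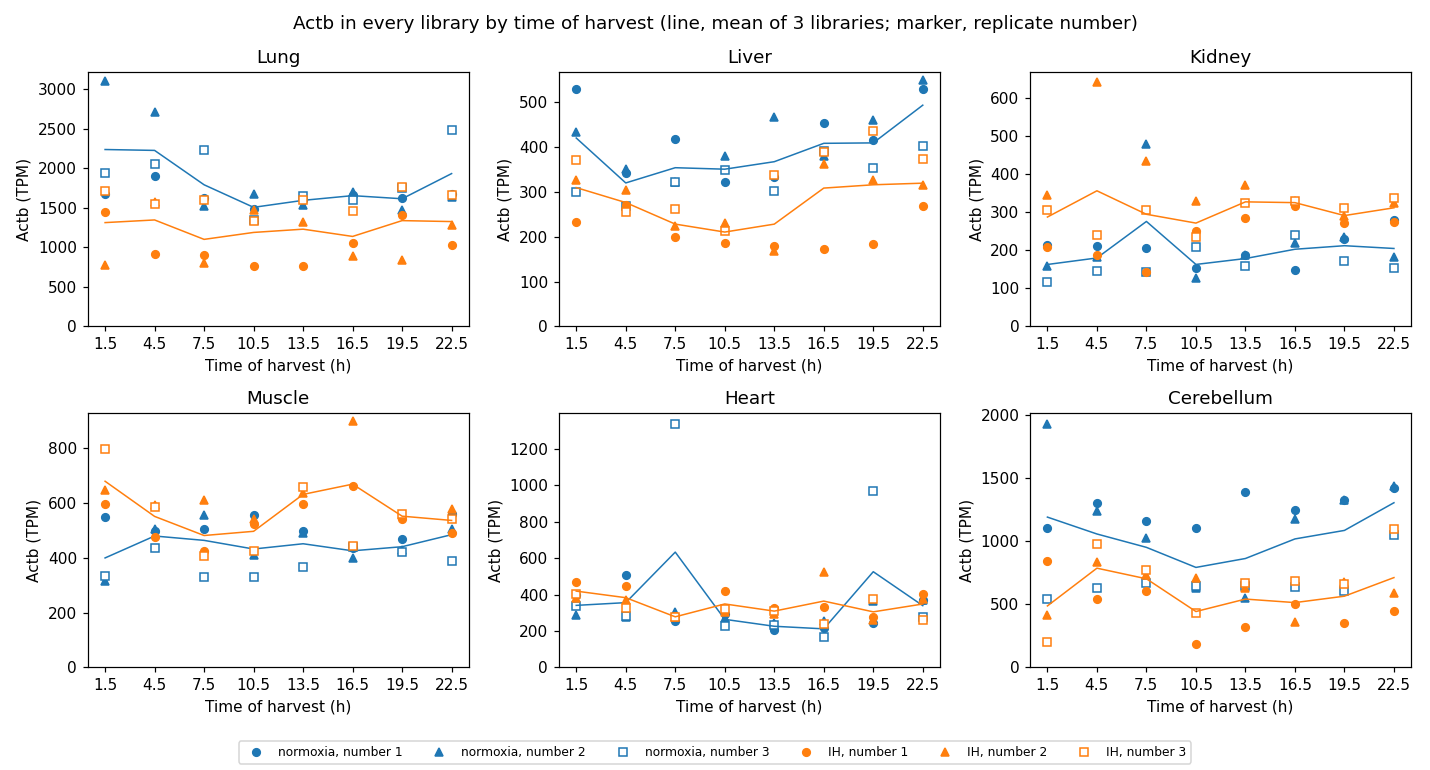
Actb (TPM, linear axis from 0) in every library against the time of harvest, with normoxia in blue, IH in orange, a marker for each replicate number and lines through the mean of 3 libraries. In the cerebellum the normoxia libraries of number 3 lie among the IH libraries, and in the kidney the IH line lies above normoxia at each of the 8 times.

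In the heart, 6 of the 10 genes rose after IH and none fell, where 45.2% of all genes passed and 28.0% were called higher. Acta2 ranged from 42.9 to 139.7 TPM (median 64.4) in normoxia and from 56.9 to 203 TPM (median 128) after IH, higher at 8 of 8 time points, and rose by 0.76 (95% interval 0.53 to 1.00, adjusted p = 1.26e-06). Tagln ranged from 47.1 to 137 TPM (median 65.2) in normoxia and from 42.2 to 159 TPM (median 111) after IH, a rise of 0.46 (95% interval 0.25 to 0.68, adjusted p = 5.23e-04). For Acta2 and Tagln 23 of 24 IH libraries lay above the normoxia median, and the groups overlapped. Myl9 ranged from 50.1 to 139 TPM (median 62.5) in normoxia and from 49.4 to 139.9 TPM (median 101) after IH, a rise of 0.44 (95% interval 0.25 to 0.64, adjusted p = 2.60e-04).

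Cnn1 averaged 8.22 ± 3.74 TPM in normoxia and 12.7 ± 3.94 TPM after IH, and rose by 0.53 (95% interval 0.25 to 0.81, adjusted p = 0.00213). Vcl averaged 11.1 ± 4.14 TPM in normoxia (range 2.36 to 19.9) and 16.4 ± 4.27 TPM after IH (range 9.82 to 23.7), and rose by 0.48 (95% interval 0.23 to 0.73, adjusted p = 0.00171). Srf ranged from 17.8 to 40.9 TPM (median 28.1) in normoxia and from 24.4 to 51.8 TPM (median 32.6) after IH, and rose by 0.20 (95% interval 0.058 to 0.34, adjusted p = 0.0185). For these genes too the groups overlapped, and 23, 22 and 20 of 24 IH libraries lay above the normoxia median. The cytoplasmic and cross-linking genes did not pass in the heart: Actg1 was at -0.037, Cnn2 at 0.033 and Flna at -0.081 (adjusted p = 0.681, 0.701 and 0.356). When the fit also held the count of genes above 0 TPM per library, none of the 10 passed (limma; 0 had an unadjusted p of 0.05 or less), beside 2.01% of all genes. Acta2 was then at 0.35, Vcl at -0.25 and Srf at -0.20. Without the 4 heart libraries that hold lung transcripts the same 6 genes passed, Acta2 at 0.72. Cnn1 did not pass without replicate 1, and Srf did not pass without replicate 1 or replicate 2.

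Lists of other genes of the pathway were counted in the heart in the same way. Of the smooth muscle contractile genes 6 of 10 rose and 1 fell. Myh11 (smooth muscle myosin heavy chain) rose by 0.75, and Mylk (myosin light chain kinase) went from 11.1 to 15.8 TPM, log2 difference 0.40 ± 0.066, adjusted p = 4.12e-06. Of the further MRTF-SRF targets 12 of 14 rose and none fell (median 0.22, beside 0.037 over all genes). Zyx (zyxin, a focal adhesion protein) and Itgb1 (integrin β1) rose by 0.27 and 0.28. None of the 5 immediate early targets tested passed. Limk2 (LIM kinase, which inactivates cofilin) went from 9.91 to 8.32 TPM, log2 difference -0.28 ± 0.056, adjusted p = 6.93e-05. Of the list of actin binding and turnover, 5 of 13 rose and 2 fell, with Gsn (gelsolin, which severs and caps filaments) from 585 to 965 TPM, log2 difference 0.62 ± 0.089, adjusted p = 2.92e-07.

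Cell type markers rose with these genes in the heart. Of fibroblast markers 5 of 5 rose (summed 293 to 634 TPM in normoxia and 472 to 834 TPM after IH). Of endothelial markers 4 of 5 rose (summed 109 to 326 TPM in normoxia and 185 to 380.1 TPM after IH). Of 7 smooth muscle and pericyte markers 4 rose and 1 fell (summed 126 to 358 TPM in normoxia and 185 to 321 TPM after IH). Some of them, Myh11 among these, were already counted above as smooth muscle contractile genes. None of the 5 leukocyte markers and none of the 5 red cell markers passed, and no marker was at 0 in all heart libraries. The part of any of these cells in the actin and contractile values was not tested.

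**Figure D5:**
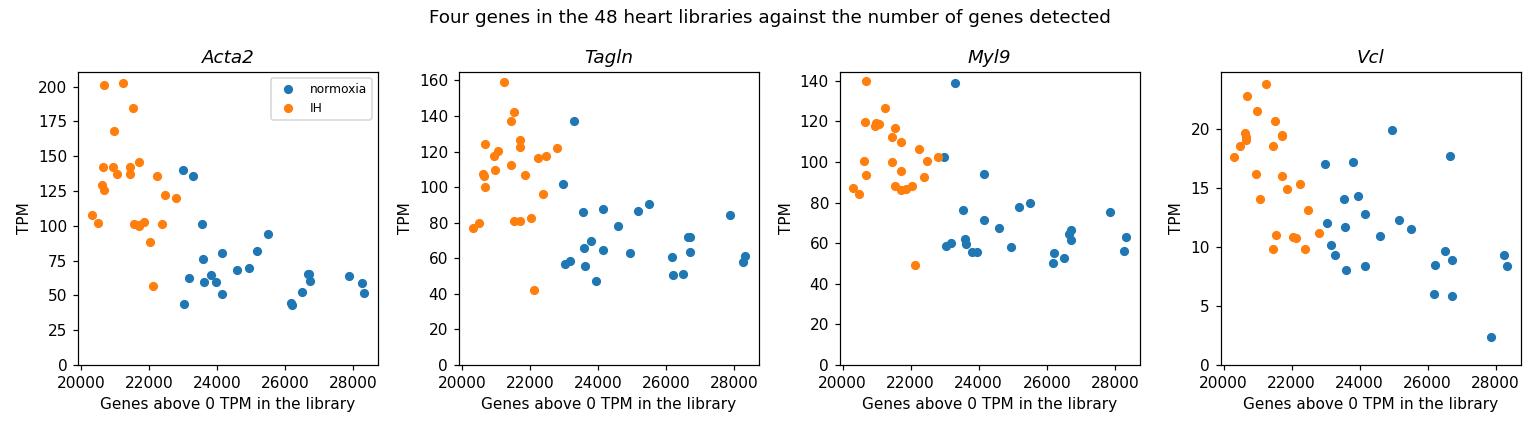
TPM (linear axis from 0) of Acta2, Tagln, Myl9 and Vcl in the 48 heart libraries against the number of genes above 0 TPM in the library, with normoxia in blue and IH in orange. No IH library reaches the lowest normoxia library on the horizontal axis (22793 against 22988 genes).

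The heart response was then set against that of each other tissue except the lung, as the interaction of tissue and treatment. Acta2 responded more in the heart than in kidney, muscle and cerebellum, by 0.78, 0.73 and 0.95 (adjusted p = 1.12e-05, 7.11e-05 and 6.51e-04). Against the liver its difference was 0.43 (95% interval -0.12 to 0.97, adjusted p = 0.221). In all, 6 of 10 genes passed against the cerebellum, 7 of 10 against the kidney, 6 of 10 against muscle and 2 of 9 against the liver, beside 29.7%, 43.6%, 37.6% and 35.3% of all genes. Without replicate 1, 2 or 3 the counts were 0, 3 and 7 against the cerebellum, 0, 4 and 3 against the liver, and 3, 4 and 5 against muscle. With the count of genes above 0 TPM in the fit, 1 gene passed against the kidney and 0 against muscle.

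In the kidney 3 of the 10 genes rose and none fell (19.8% of all genes passed). Besides Actb, Flna ranged from 9.07 to 28.3 TPM (median 13.3) in normoxia and from 15.9 to 34.9 TPM (median 21.5) after IH, with all 24 IH libraries above the normoxia median, and rose by 0.62 (95% interval 0.47 to 0.78, adjusted p = 3.26e-08). By number it was at 0.35, 0.67 and 0.85. Myl9 rose by 0.17 (95% interval 0.077 to 0.27, adjusted p = 0.00733), and did not pass on TPM as deposited (0.13, adjusted p = 0.214) or without replicate 2 (0.085, adjusted p = 0.279). Acta2, Tagln and Cnn1 were at 0.032, 0.085 and -0.025 (adjusted p = 0.815, 0.497 and 0.855). Elsewhere in the pathway, Elk4 (a ternary complex factor) went from 11.4 to 14.7 TPM, log2 difference 0.40 ± 0.068, adjusted p = 3.26e-05, and Myh9 (non-muscle myosin heavy chain) from 24.9 to 31.7 TPM, log2 difference 0.39 ± 0.094, adjusted p = 0.00246. All 5 red cell markers rose in the kidney (summed 2796 to 6206 TPM in normoxia and 3574 to 17429 TPM after IH). Of 7 smooth muscle and pericyte markers 2 rose and none fell, Cspg4 (a pericyte proteoglycan) from 2.42 to 3.92 TPM, log2 difference 0.67 ± 0.077, adjusted p = 1.10e-08, and Lmod1 (leiomodin 1, which nucleates actin) from 1.02 to 1.16 TPM, log2 difference 0.15 ± 0.057, adjusted p = 0.0494 (the 7 summed 28.8 to 72.0 TPM in normoxia and 37.2 to 73.7 TPM after IH). Of 5 endothelial markers 2 rose and none fell, Cldn5 (a tight junction protein) from 11.6 to 15.8 TPM, log2 difference 0.43 ± 0.085, adjusted p = 3.10e-04, and Kdr (a VEGF receptor) from 10.6 to 11.5 TPM, log2 difference 0.16 ± 0.053, adjusted p = 0.0227. None of 5 fibroblast markers passed, and 1 of 3 leukocyte and 1 of 5 kidney markers fell. The part of any of these in the values of the 10 genes was not tested.

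In muscle 2 of the 10 genes rose and none fell (10.4% of all genes passed), Tagln beside Actb. Tagln averaged 58.1 ± 13.4 TPM in normoxia and 70.0 ± 8.43 TPM after IH, a rise of 0.20 (95% interval 0.093 to 0.30, adjusted p = 0.00888) that did not pass without replicate 2 or replicate 3. Acta1, the skeletal muscle actin gene, went from 30809 to 26941 TPM, log2 difference -0.29 ± 0.072, adjusted p = 0.00543. It is also 1 of the 5 muscle markers, all of which were lower and 2 of which fell, the other being Ckm (muscle creatine kinase) from 23144 to 21140.2 TPM, log2 difference -0.23 ± 0.062, adjusted p = 0.0116. Their part in the value of Acta1 was not tested. Rock1 went from 8.48 to 11.9 TPM, log2 difference 0.37 ± 0.044, adjusted p = 2.20e-08.

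In the liver Cnn1 had a mean under 1 TPM and was not tested. Of the other 9 genes Actb fell and Tagln rose (24.2% of all genes passed). Tagln ranged from 6.03 to 19.2 TPM (median 8.47) in normoxia and from 8.26 to 42.2 TPM (median 10.1) after IH, and rose by 0.38 (95% interval 0.09 to 0.66, adjusted p = 0.0471). Without the library with heart transcripts the rise was 0.25 (adjusted p = 0.0199). That library held the highest liver value of Tagln, Acta2 (55.1 TPM, against at most 4.60 TPM in the other IH libraries), Myl9, Cnn1, Cnn2, Flna and Srf. On TPM as deposited, with no filter and without replicate 1 or replicate 2, Tagln did not pass in the liver. Without the library with heart transcripts Flna fell (-0.28, adjusted p = 0.022). Kidney markers in the liver summed to 0.594 to 112 TPM in normoxia and 37.5 to 407 TPM after IH and red cell markers to 1841 to 3949 TPM in normoxia and 1260.0 to 29992 TPM after IH, and their part in the liver values was not tested. In the cerebellum Cnn2 ranged from 5.43 to 12.0 TPM (median 7.07) in normoxia and from 6.65 to 14.3 TPM (median 9.28) after IH and rose by 0.35 (95% interval 0.14 to 0.57, adjusted p = 0.0202), and did not pass without replicate 1 (0.43, adjusted p = 0.103) or replicate 2 (0.30, adjusted p = 0.459).

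Outside the heart the lists of the pathway gave the following counts of genes that passed. Of the smooth muscle contractile genes, 4 rose and none fell of 8 in the kidney, none rose and 3 fell of 9 in muscle, none rose and 1 fell of 6 in the liver and none rose and none fell of 8 in the cerebellum. Of the further MRTF-SRF targets, 2 rose and 2 fell of 13 in the kidney, 1 rose and 1 fell of 14 in muscle, 2 rose and 2 fell of 13 in the liver and 1 rose and 2 fell of 14 in the cerebellum. Of actin binding and turnover, 2 rose and none fell of 13 in the kidney, none rose and none fell of 13 in muscle, 1 rose and 3 fell of 13 in the liver and 1 rose and 1 fell of 13 in the cerebellum. Of immediate early targets, 1 rose and none fell of 4 in the kidney, none rose and 1 fell of 5 in muscle, none rose and 1 fell of 4 in the liver and 1 rose and none fell of 5 in the cerebellum. Of other actins, none rose and 1 fell of 2 in muscle, 1 rose and none fell of 2 in the liver and none rose and none fell of 2 in the cerebellum, with none tested in the kidney. Over all genes 19.8%, 10.4% and 24.2% passed in kidney, muscle and liver, and in the cerebellum 9.76% rose and 5.24% fell. Des (desmin, an intermediate filament protein of muscle) rose in the kidney by 0.31, and Tpm2 (tropomyosin) fell in muscle, at -0.21. In the cerebellum Fhl1 (a LIM domain protein of muscle) went from 54.3 to 44.1 TPM, log2 difference -0.33 ± 0.065, adjusted p = 4.00e-04, and Junb (an immediate early transcription factor) from 7.06 to 10.6 TPM, log2 difference 0.59 ± 0.11, adjusted p = 1.55e-04. Cfl1 fell in the liver along with Actb, from 156 to 122 TPM, log2 difference -0.26 ± 0.073, adjusted p = 0.00642.

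With a fold of at least 1.5 asked for beside the adjusted p, 0, 2, 0, 1 and 1 genes passed in liver, kidney, muscle, heart and cerebellum (Actb and Flna in the kidney, Acta2 in the heart and Actb in the cerebellum). The shares of all genes were 3.65%, 0.783%, 0.374%, 2.95% and 2.64% in the same order.

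A rhythm of 24 hours was tested for each gene within each tissue and treatment, and 4 of 118 tests passed, beside 6.49% of all gene tests. The first was Tagln in the normoxia kidney (peak-to-trough fold 1.43, fitted peak at 19.0 h, adjusted p = 0.0108; 20.9% of all genes passed there). In muscle after IH (8.68% of all genes) they were Acta2 and Myl9 (1.43-fold and 1.35-fold, adjusted p = 0.00922 and 0.0042), and in the heart after IH (4.37% of all genes) Cnn2 (1.30-fold, adjusted p = 0.0447). As a check of the fit, the clock genes Arntl, Dbp and Per2 passed in 30 of 36 tests. In the cerebellum only Dbp after IH passed (F test, adjusted p = 7.63e-05), so little can be read from the lack of passed tests there. Per2 in the liver after IH did not pass either (adjusted p = 0.31). The difference in rhythm between treatments passed for none of the 49 gene and tissue pairs outside the lung (limma; 1 at an unadjusted p under 0.05) and for none of the 64731 tests over all genes (1749 unadjusted), that is 0.0%.

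The smooth muscle genes varied together across the normoxia libraries (24 in each of the 6 tissues) after the mean of each tissue was taken off. Pearson's r was 0.78 between Acta2 and Tagln, 0.77 between Acta2 and Cnn1, 0.69 between Acta2 and Myl9 and 0.74 between Tagln and Myl9. It was 0.65 between Tagln and Cnn1 and 0.54 between Cnn1 and Myl9. By tissue, Tagln and Myl9 went from 0.36 in the liver to 0.94 in the heart, and Cnn1 and Myl9 from 0.19 to 0.73. Actb and Actg1 had an r of 0.35, from 0.13 in the cerebellum to 0.89 in the heart. Between Actb and Vcl r was -0.45, but its sign turned with the tissue, from -0.80 in the heart, -0.76 in the lung and -0.69 in the liver to 0.71 in the kidney and 0.73 in muscle. Between Actb and Srf it was -0.42, from -0.73 in the lung to 0.17 in the kidney. Of 5418 other genes with at least 5 TPM in every tissue, the most like Actb were Lta4h, Nucks1 and Gart (r = 0.691, 0.670 and 0.660). The most like Acta2 were Gsn and C3 (0.599 and 0.559), and the most like Srf were Inppl1, Pofut2 and Tmem63b (0.677, 0.648 and 0.612). These pooled values also differed by tissue. Lta4h with Actb went from 0.121 in the kidney to 0.836 in the heart. From lung to cerebellum, Gsn with Acta2 went from 0.073 to 0.878, C3 with Acta2 from 0.123 to 0.906 and Inppl1 with Srf from 0.390 to 0.869. Libraries share their scaling and base composition, so these correlations are a description with no p.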

How the data were processed

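RNA was extracted with Trizol and poly(A) libraries were made with a directional kit. The authors quantified reads with Kallisto against Ensembl transcripts (mm10, per the submitters' notes, with FastQC 0.11.3 for read quality) and deposited TPM values per gene, 1 table per tissue and treatment. Library sums were 989211 to 999188 TPM. TPM keeps no read depth, so the depth behind a value is unknown here and no counting interval is given.

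TPM values were divided by a size factor per library (median of ratios) and taken to log2 after adding 0.5; a fold on this scale understates changes of low genes. The scaling moved the median difference of all genes by over 0.1 in the lung, the heart (from 0.15 to 0.037) and the liver (from -0.12 to -0.0070). Genes averaging 1 TPM or more over the libraries of a fit were tested with limma 3.58.1 (R 4.3.3, intensity trend), treatment alone as the term, and adjusted by Benjamini-Hochberg over all genes of the fit. All tests were 2-sided and passed at an adjusted p of 0.05 or less. Rhythms were F tests of a cosine and sine of 24 hours. For mean expression the authors ran DESeq2 on estimated counts, which were not used here, so limma took its place. Other pseudocounts, filters and scaling, time point, replicate number or the count of genes above 0 TPM as a term, and single numbers left out or taken alone were tried as alternatives. The steps were tested on simulated data. The counts of 1 gene list, and 1 gene, are not reported here. Members and gene lists were chosen with earlier results of these data known; all 10 members are named, and from each list at most 2 genes per tissue, by lowest adjusted p among those that passed, or in the lung by size of difference. Ratios of Actb to Actg1 and the removal of heart and cerebellum libraries were chosen after the values were seen. Same-numbered libraries of a time point did not all deviate together in any tissue, so the numbers were not used as pairs. In the liver, though, 22 of 24 such pairs correlated in their deviations by over 0.1. A replicate block there raised the share of all genes that passed from 24.2% to 32.2%, with no changed call of the 10 genes. Averaged over time, the numbers deviated together in muscle alone, where a replicate block changed no call of the 10 genes. Promoter sequences are from RefSeq, and gene positions from GENCODE M21. Replicate mice are separate animals, but libraries of an animal in several tissues were not linked, and the heart comparisons treat them as independent.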

Additional observations from a re-analysis of the deposited data

Results flagged for a closer look

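The difference between the log2 response of the heart and that of another tissue passed the interaction test for the following genes, which is why they are listed. Against the cerebellum these were Acta2 0.95, Actb 0.82, Cnn1 0.67, Myl9 0.44, Tagln 0.60, Vcl 0.63. Against the kidney they were Acta2 0.78, Actb -0.67, Cnn1 0.60, Flna -0.65, Myl9 0.32, Tagln 0.43, Vcl 0.60. Against muscle they were Acta2 0.73, Cnn1 0.51, Myl9 0.46, Srf 0.32, Tagln 0.29, Vcl 0.37. Against the liver they were Actb 0.42, Vcl 0.78. Positive values mean a higher response in the heart. All 24 normoxia heart libraries had more genes above 0 TPM than any IH heart library, and with that count in the fit the number of genes that passed was 4 against the cerebellum, 1 against the kidney, 0 against muscle and 1 against the liver. Groups of 24 libraries are outside the size for which a single far value was tested.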

How the results depend on the processing

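Counts are of the genes that passed. Leaving out each replicate number gave 0 to 4 in the liver (2 with all libraries), 3 each time in the kidney (3), 1 to 2 in muscle (2), 4 to 6 in the heart (6) and 0 to 3 in the cerebellum (2); for rhythm 1 to 3 (4), and for the heart response 0 to 4 against the liver (2), 6 to 8 against the kidney (7), 3 to 5 against muscle (6) and 0 to 7 against the cerebellum (6). With only number 1, 2 or 3, which have fewer samples, the counts were 3, 1 and 0 in the liver, 0, 3 and 4 in the kidney, 0, 1 and 3 in muscle, 5, 1 and 1 in the heart and 1, 3 and 0 in the cerebellum. Asking for 1.5-fold as well left 0, 2, 0, 1 and 1 in liver, kidney, muscle, heart and cerebellum. In the liver, no filter gave 1 and TPM as deposited 1. With the count of genes above 0 TPM in the fit, the heart count was 0, 5 lung genes were lower in place of 9, and the heart response differed for 1, 1 and 0 genes against liver, kidney and muscle. Against the liver it differed for 4 on TPM as deposited, 1 with a minimum of 5 TPM and 4 without the liver library that stands apart, a setting added after the data were seen. The rank test for rhythm gave 0. With a replicate number left out, the rhythms that passed in muscle after IH were 2, both without replicate 1. The other passes were in the liver of either treatment and the kidney after IH, where none passed with all libraries.

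The lung differences carry no test. Among the 9 genes lower there with all libraries, signs turned with the count of genes above 0 TPM in the fit for Acta2 0.44, Cnn1 0.081, Cnn2 0.21 and Vcl 0.44. With number 3 alone they turned for Acta2 0.28, Cnn1 0.028 and Vcl 0.32, and with number 1 alone for Flna 0.0027. On TPM as deposited they turned for Vcl 0.023 and Flna 0.21. Among differences called with all libraries in the other tissues, number 3 alone turned Actb to 0.029 and Tagln to -0.16 in the liver. In the cerebellum it turned Actb to 0.018. Also with number 3 alone Vcl, not called with all libraries, passed in the kidney at 0.31, against its sign there. Signs of other differences that were not called also turned in places and are not listed. With the count of genes above 0 TPM in the fit Vcl was -0.25 and Srf -0.20 in the heart, and the heart response of Vcl was -0.056, -0.20 and -0.18 against liver, kidney and muscle. The cause was not tested. The replicate block gave the same calls of mean difference and 44 neighbouring tissue pairs, but 7 rhythms in place of 4. The block changed 1 other call, the heart response of Srf against the kidney, which then passed at 0.20 (adjusted p = 0.0478). Same-numbered libraries of a time point correlated in their deviations by over 0.1 in 6 (lung) to 22 (liver) of 24 pairs, and the means over each number by over 0.1 for all 3 numbers in muscle only (0.155, 0.376 and 0.650). Of the mean differences outside the lung taken gene by gene, 690 of the values under all settings kept their call. Those called kept their direction too, and those not called moved by less than 1 SD, some of them with a turned sign. The call was lost by 43 and gained in the same direction by 11, and 16 that were not called moved by more than 1 SD. Another 6, as given above, turned sign where the value was called with all libraries or in that setting, and 5 of them lost the call. TPM keeps no depth, so what depth limits could not be assessed.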

Other observations

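Rhythms were also tested for the lists of related genes, and the share of tests that passed was 5.52% for further MRTF-SRF targets, 3.92% for smooth muscle contractile genes, 6.45% for immediate early targets, 2.56% for actin binding and turnover and none of 24 for other actins (limma, Benjamini-Hochberg over all genes). Over all genes it was 6.49%, and none of these shares exceeded it. The genes with the lowest adjusted p, named after their values were seen, were in the normoxia liver Actn1, which codes for the cross-linker α-actinin 1 (1.71-fold from trough to peak, adjusted p = 3.46e-07), Itga5, which codes for integrin α5 (1.98-fold from trough to peak, adjusted p = 2.31e-05), and Junb (3.32-fold from trough to peak, adjusted p = 8.60e-05). Mcl1, an apoptosis inhibitor, passed in muscle under both treatments (1.33-fold from trough to peak, adjusted p = 8.49e-05 in normoxia, and 1.26-fold from trough to peak, adjusted p = 0.00668 after IH). The MRTF genes, which were not next in rank, passed as well. They were Mrtfa in muscle after IH (1.88-fold from trough to peak, adjusted p = 0.012) and Mrtfb in the normoxia kidney (1.40-fold from trough to peak, adjusted p = 0.0108). Mrtfa passed in the normoxia liver too (1.28-fold from trough to peak, adjusted p = 0.0415). Other list genes not named here had a lower adjusted p than these, and no further test of an MRTF gene passed. None of the 10 members passed in both treatments of a tissue.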
